A study of Mus musculus with 32 samples.

Results

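Expression of 9 pluripotency genes (*Pou5f1*, *Sall4*, *Lin28a*, *Trim71*, *Dppa2*, *Dppa4*, *Dppa3*, *Dppa5a* and *Utf1*) was followed while mouse ES (mES) cells were driven towards primitive endoderm (PrE) by a *Gata6* transgene. The genes are 9 of the 54233 rows of the RNA-seq table and were chosen by their level over time in these same samples, as pluripotency genes that stayed on late. Their time course is therefore given as a description, without a test, and rose and fell refer to their means. The data went against that label for *Dppa3*, which was at 7.78% of its starting level by 24 h, and the set is called the 9 genes here. All 9 passed the filter on low counts that left 15227 genes for testing.

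The cells were of the KH2 mES line, given in the labels as C57BL/6, and every sample, uninduced cells included, carried a single-copy transgene in which a TET-responsive element drives *Gata6*-FLAG in one direction and DsRed2 in the other. At 0 h the cells had received no Dox and were kept in 2i (the MEK inhibitor PD0325901 and the GSK3 inhibitor CHIR) with LIF. Cells at 2, 4, 8, 16, 24, 48 and 96 h had been moved to serum and LIF with Dox at 1 µg/ml, which was taken away at 12 h. Every difference from 0 h thus holds a change of medium as well as Dox, and their shares cannot be told apart. There were 4 replicates at each of the 8 time points, 32 samples in all, with 3190108 to 12301732 reads on genes per sample, and nothing in the labels says whether replicates were separate cultures. The transgene sits at a single targeted site in this line, and these samples are of unsorted cells.

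Pluripotent cells of the blastocyst give rise to epiblast and PrE, and OCT4, the product of *Pou5f1*, is needed for both. LIN28A is an RNA-binding protein that keeps let-7 microRNAs from maturing, and let-7 in turn represses *Lin28a* and *Trim71*, so that loss of LIN28A and gain of let-7 accompany differentiation in many tissues. DPPA2 and DPPA4 form a pair of chromatin proteins, whereas DPPA3 limits maintenance of DNA methylation in oocytes, early embryos and germ cells.

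The link to let-7 can be read in the transcripts. Of 11 mature let-7 and miR-98 sequences matched by name in the RefSeq table (GRCm38.p6), 10 share a seed, bases 2 to 8, shown in capitals. Shown here are 3 that share it and let-7j, which does not. Their genes lie on the minus strand of chromosome 13 (let-7a), on the plus strand of chromosome 9 (let-7g), on the plus strand of chromosome X (miR-98) and on the plus strand of chromosome 3 (let-7j).

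let-7a-5p: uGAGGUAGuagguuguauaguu

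let-7g-5p: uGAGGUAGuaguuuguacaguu

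miR-98-5p: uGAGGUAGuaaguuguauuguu

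let-7j: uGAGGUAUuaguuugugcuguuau

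The longest annotated 3′ UTR of each gene (GENCODE M21, GRCm38) was searched for CTACCTC, the complement of the shared seed, on the transcript strand. *Trim71* held 4 matches, *Lin28a* 2 and *Sall4* 1, and the other 6 genes none. In each of these 7 matches the next base was A. For comparison, 9.02% of 21039 genes with a 3′ UTR held the 7 letters, and 3.06% held CTACCTCA. The 3′ UTRs differed in length, from 122 bases for *Utf1* to 5512 for *Trim71*, and a longer UTR can hold more matches. The match is in capitals in each window, all on the minus strand.

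*Trim71*, chr9:114512472-114512494: aacattgcctaagtcCTACCTCa

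*Trim71*, chr9:114512376-114512398: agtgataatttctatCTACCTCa

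*Trim71*, chr9:114509047-114509069: tttagtatggattttCTACCTCa

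*Trim71*, chr9:114509021-114509043: ttggcaaaaagttgtCTACCTCa

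*Lin28a*, chr4:134005189-134005211: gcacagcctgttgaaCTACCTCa

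*Lin28a*, chr4:134004551-134004573: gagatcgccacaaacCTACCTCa

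*Sall4*, chr2:168748940-168748962: agggctttaatttatCTACCTCa

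The samples were checked against markers before the 9 genes were read. The summed normalized count (each sample's reads after division by its deposited scaling) of 9 PrE markers that exclude *Gata6* was 631 to 901 at 0 h and 121077 to 231698 at 48 h. The sum of 8 ES cell markers fell to 12.0% of 0 h at 48 h and to 6.16% at 96 h, with no marker of that list at or under 3 reads throughout a time point. Among them *Klf4* fell least, to 50.3% of 0 h at 48 h and 44.5% at 96 h, and next *Zfp42*, to 29.0% and 15.6%. The summed level of 6 trophoblast markers was 293 to 317 at 48 h against 243 to 448 at 0 h, mostly from *Eomes* (mean 167 and 263). Within that list *Gata3* went from a mean of 1.36 to 33.2 and *Hand1* from 0.17 to 52.8, *Tfap2a* was at 33.3% and *Cdx2* at 113% of 0 h, and *Elf5* did not exceed 3 reads in any sample from 16 h on. The 4 mesoderm markers summed to 52.9 to 435 at 0 h and 7.22 to 9.42 at 48 h. The sum of 5 epiblast markers was 1185% of 0 h at 24 h and 360% at 48 h, which was nearly all *Dnmt3b* (1258% and 380%). At 24 h the other 4 were at 99.0% (*Otx2*), 93.6% (*Pou3f1*), 19.8% (*Sox3*) and 15.1% (*Fgf5*) of 0 h. The part of any remaining ES or epiblast-like cells in the levels below was not tested. In bulk samples, fewer cells that express a gene and less RNA of it per cell cannot be told apart.

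Replicates 1 and 2 resembled each other, and so did replicates 3 and 4. Deviations from the time point means, compared across genes between samples of different time points, had a mean correlation of 0.196 within these sets (-0.0428 to 0.492) and of -0.196 between them (-0.487 to 0.0512), where the opposite sign follows from centring on the time point means. What the sets are is not stated in the labels, and values within each set are given for *Lin28a*, *Utf1*, *Dppa4*, *Dppa3*, *Pou5f1* and *Sall4*.

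By 48 h, 8 of the 9 genes were still at or above 50% of their 0 h level, and by 96 h 4 were (*Lin28a*, *Sall4*, *Trim71* and *Dppa5a*). How many of all genes tested kept that level was not counted. The median log2 difference from 0 h over all genes tested was -0.02 at 48 h and -0.03 at 96 h, so nothing is read from these counts. The 9 genes differed in how late they fell. The interpolated time at which the mean level last crossed 50% of 0 h was 11.8 h for *Dppa3*, 58.2 h for *Utf1*, 66.8 h for *Pou5f1*, 72.9 h for *Dppa4* and 95.6 h for *Dppa2*, and the remaining 4 genes did not cross it by 96 h. Leaving out each replicate in turn gave 10.4 to 12.8 h for *Dppa3*, 49.8 to 67.3 h for *Utf1*, 64.7 to 69.2 h for *Pou5f1* and 67.0 to 84.1 h for *Dppa4*. *Dppa2* moved between 95.1 h and no crossing. The ranges of *Utf1* and *Pou5f1* overlapped, as did those of *Pou5f1* and *Dppa4*, so the order of these neighbours was not separated. Such ranges share most of their samples and understate the spread between replicates. By the means, *Dppa3* crossed first and *Dppa2* last. Whether *Dppa2* crossed later than *Dppa4* beyond the replicate spread was not tested. *Utf1* did not cross 50% within replicates 3 and 4, against 46.1 h within replicates 1 and 2, where it was thus already below 50% at 48 h. *Dppa4* crossed at 58.6 h within replicates 1 and 2 and at 91.7 h within replicates 3 and 4, both outside its range above. *Pou5f1* crossed at 62.0 h within replicates 1 and 2 and at 71.6 h within replicates 3 and 4, also both outside its range. *Dppa3* crossed at 12.9 h and 11.1 h, the first just outside its range. *Dppa2* crossed at 95.0 h within replicates 1 and 2 and not within replicates 3 and 4. Between 24 and 96 h only 48 h was sampled, so these times rest on a straight line between time points.

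**Figure D1:**
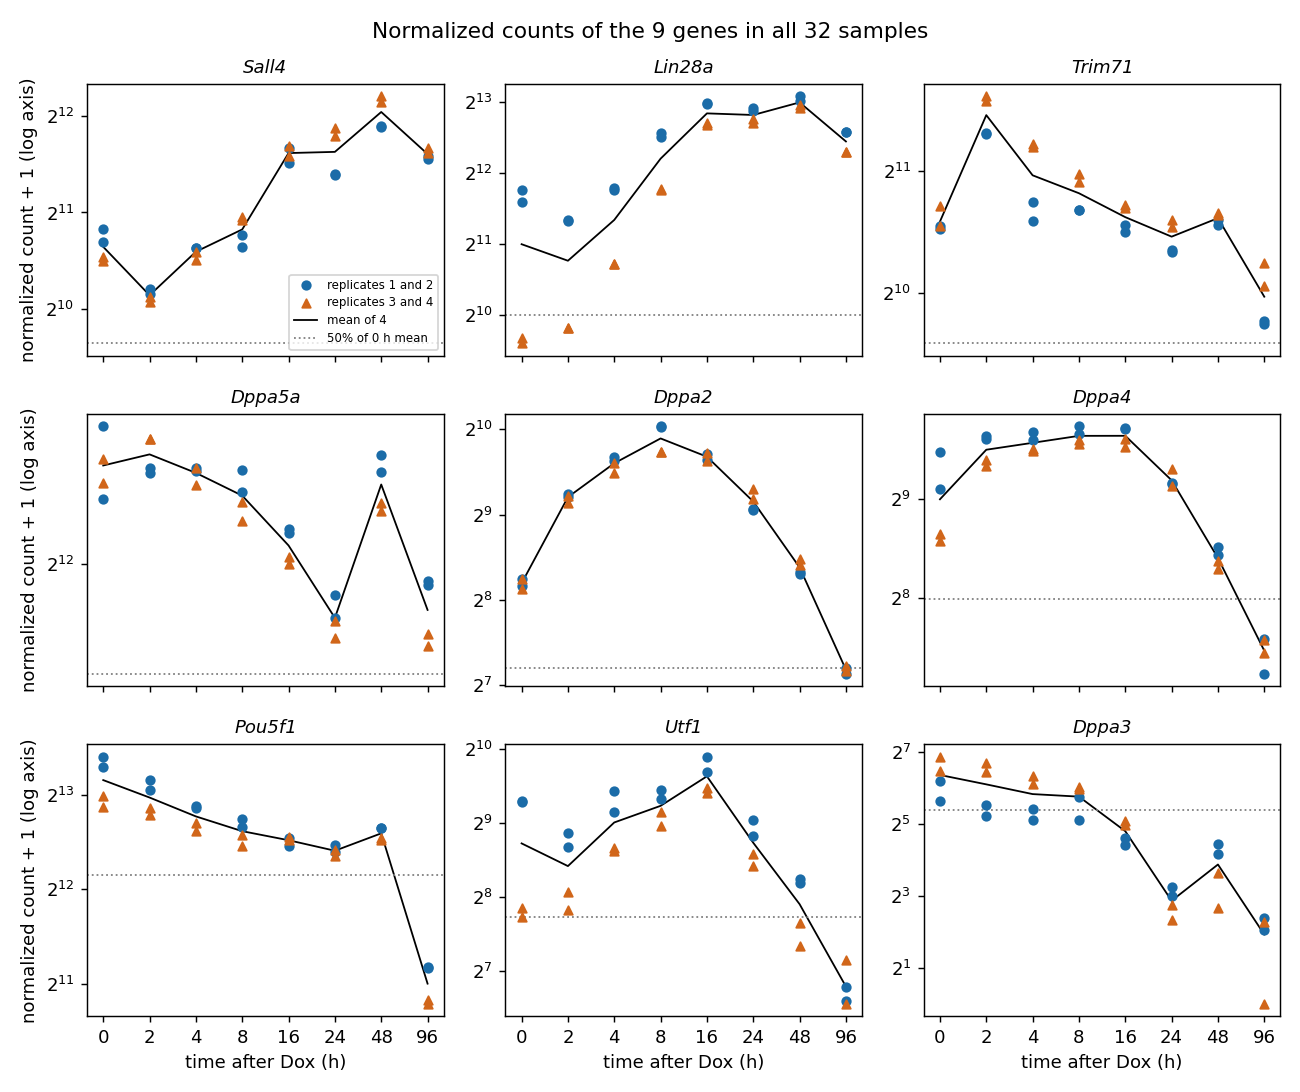
Normalized counts (plus 1, log axis) of the 9 genes in all 32 samples against time after Dox, with replicates 1 and 2 as circles, replicates 3 and 4 as triangles, the mean of 4 as a line and 50% of the 0 h mean dotted. At 0 h the 2 sets stand furthest apart for *Lin28a* and *Utf1*, and at 96 h the means of 5 genes lie below the dotted line.

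*Pou5f1* (ENSMUSG00000024406, GRCm38 chromosome 17, 35506018 to 35510772, plus strand), which encodes the POU-domain factor OCT4, declined slowly, paused and then fell. Normalized counts at 0 h were 10821, 10038, 8102 and 7457 in replicates 1 to 4. At 24 h they were 5665, 5362, 5459 and 5228, and at 48 h 6413, 6420, 5971 and 5860. All samples of both times lay below all samples of 0 h, and the mean at 48 h was 67.7 ± 12.2% of 0 h (SD carried over from 4 and 4 samples). The 48 h samples also lay above all of the 24 h samples, whereas after scaling by total reads the samples of these times overlapped. At 96 h the counts were 2319, 2294, 1769 and 1824, or 22.5 ± 5.09% of 0 h, a log2 difference of -2.14 ± 0.10 (SE of the fit across all genes). The 96 h mean was 33.3% of that at 48 h, and this interval held 58.3% of the whole fall from 0 to 96 h.

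*Sall4* (ENSMUSG00000027547, chromosome 2, 168748332 to 168767943, minus strand) encodes a zinc-finger factor that partners OCT4 in ES cells and is also used by extraembryonic endoderm. It dipped and then rose. Normalized counts were 1651, 1813, 1491 and 1445 at 0 h and 1144, 1181, 1115 and 1080 at 2 h, with no overlap. By 48 h they had reached 3773, 3819, 4528 and 4723, the highest mean of the course and 263 ± 41.0% of 0 h. At 96 h they were 3071, 3008, 3242 and 3134, below every 48 h sample and above every 0 h sample, at 195 ± 21.3% of 0 h.

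*Lin28a* (ENSMUSG00000050966, chromosome 4, 134003330 to 134018841, minus strand), the inhibitor of let-7 maturation, rose the most in percent of 0 h among the 9 genes over all 4 replicates, but its starting level depended on the replicate set. Within replicates 1 and 2 alone, *Dppa2* went higher, to 357% at 8 h. At 0 h the normalized counts were 3474 and 3093 in replicates 1 and 2 and 775 and 814 in replicates 3 and 4. At 16 h the sets had drawn close, with 8048, 8029, 6509 and 6641, and at 48 h the counts were 8656, 8283, 7689 and 7900. All samples at 16, 24, 48 and 96 h lay above all 0 h samples. The 48 h mean was 399% of 0 h over all 4 replicates, 258% within replicates 1 and 2 and 981% within replicates 3 and 4, so the rise was present in both sets and its size differed between them, as the 0 h level did. At 96 h the counts were 6099, 6093, 5013 and 5021, or 186% and 632% of 0 h within the sets.

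*Trim71* (ENSMUSG00000079259, chromosome 9, 114507133 to 114564369, minus strand) encodes an RNA-binding TRIM protein that represses target mRNAs and is itself a classic let-7 target. It spiked first. Counts were 1498, 1472, 1680 and 1498 at 0 h and 2540, 2524, 3058 and 3139 at 2 h, the highest mean of its course at 183 ± 24.2% of 0 h. From 16 to 48 h the means stayed within 91.8 to 103% of 0 h and samples overlapped with 0 h. After scaling by total reads, all 48 h samples lay below all 0 h samples. At 96 h they were 872, 858, 1213 and 1066, all below 0 h, at 65.2 ± 11.7%.

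The *Dppa2* (ENSMUSG00000072419, chromosome 16, 48303908 to 48319723) and *Dppa4* (ENSMUSG00000058550, chromosome 16, 48283733 to 48294237) genes, neighbours on the plus strand, rose together before they fell. *Dppa2* counts were 286, 302, 280 and 302 at 0 h, a spread of 3.89% of the mean. At 8 h they were 1046, 1048, 853 and 851, the peak at 325 ± 40.5% of 0 h. At 48 h they were 315, 320.3, 340.4 and 355, just above every 0 h sample, whereas after scaling by total reads they overlapped with 0 h. At 96 h they were 146, 139.9, 143 and 148, at 49.4 ± 2.31%. The 96 h samples lay below all of 0 h, at a level that the 50% mark runs through.

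For *Dppa4* the counts at 0 h were 708, 548, 379.6 and 400.4, with the 2 sets apart. They were 829, 833, 775 and 731 at 16 h, above every 0 h sample, at 156 ± 47.6% of 0 h. The means at 8 and 16 h differed by less than the spread between replicates. At 48 h the counts were 364, 345, 329.9 and 313 and at 96 h 151, 191, 174 and 191, which is 34.8 ± 11.1% of 0 h and 22.3% of the peak. The 48 h level was 56.4% of 0 h in replicates 1 and 2 but 82.4% in replicates 3 and 4, and the 96 h level 27.2% and 46.9%. Over the 8 time point means on the log2 scale, *Dppa2* and *Dppa4* had a Pearson r of 0.95, the highest of the 36 pairs among the 9 genes, and *Dppa4* and *Utf1* 0.94. These points share their libraries, and genes chosen for their course are not independent.

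*Utf1* (ENSMUSG00000047751, chromosome 7, 139943789 to 139945112, plus strand) encodes a chromatin-bound protein of ES cells that is a target of OCT4 and SOX2. Its counts at 0 h were 618 and 624 in replicates 1 and 2 and 210.4 and 230.4 in replicates 3 and 4. At 16 h they were 821, 951, 709.5 and 677, the peak and above every 0 h sample. At 48 h they were 290.2, 301, 199.7 and 160.0, or 47.6% of 0 h within replicates 1 and 2 and 81.6% within replicates 3 and 4, and both sets lay below their own 0 h samples. At 96 h they were 95.5, 109, 92.9 and 139.9, below every 0 h sample. The 96 h mean was 26.0% of 0 h over all replicates, 16.5% within replicates 1 and 2 and 52.8% within replicates 3 and 4.

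*Dppa5a* (ENSMUSG00000060461, chromosome 9, 78367052 to 78368177, minus strand), an RNA-binding KH-domain gene of ES cells, dipped and came back. Counts were 6476, 5087, 5809 and 5360 at 0 h and 3690, 3416, 3198 and 3381 at 24 h, or 60.2 ± 7.35% of 0 h with no overlap. At 48 h they were 5880, 5562, 4880 and 5015, above every 24 h sample and overlapping with 0 h, at 93.9 ± 13%. At 96 h they were 3873, 3823, 3115 and 3240, at 61.8 ± 9.53%.

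*Dppa3* (ENSMUSG00000046323, chromosome 6, 122626410 to 122630272, plus strand), also known as Stella, had the lowest counts, not divided by length, and was the earliest lost. Counts at 0 h were 71.8, 48.2, 115 and 86.9. At 8 h they still overlapped with 0 h, at 33.0, 52.7, 63.8 and 61.6. At 16 h they were 23.5, 20.4, 32.6 and 30.2 and at 24 h 8.41, 6.88, 4.06 and 5.71, the latter from 2 to 11 reads. At 48 h they were 20.7, 17.0, 5.28 and 11.4, which overlapped with 24 h. The sets differed at 48 h, with 31.4% of 0 h in replicates 1 and 2 against 8.23% in replicates 3 and 4. At 96 h there were 4, 3, 0 and 4 reads. Percentages of 0 h at these depths, 16.9 ± 10.2% at 48 h and 3.47 ± 2.67% at 96 h, rest on few reads and counting error alone is large.

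Levels can be compared between genes only per length. Per kb of exon, *Dppa5a* had the highest mean normalized count at 0 h (9181 ± 980, SD, n = 4), followed by *Pou5f1* (4050 ± 705). *Lin28a*, *Utf1*, *Dppa4* and *Sall4* followed with 510 ± 362, 343 ± 189, 306 ± 91.7 and 289 ± 30.2, which did not differ beyond their spread. Within replicates 3 and 4, *Lin28a* (199) was below *Sall4* (265) and *Dppa4* (235). *Trim71* (165 ± 10.3), which overlapped with *Utf1*, *Dppa2* (119 ± 4.65) and *Dppa3* (90.3 ± 31.5) came last, and *Dppa2* and *Dppa3* overlapped. At 96 h *Dppa5a* was still first at 5675 ± 631 per kb, and *Lin28a*, at 1391 ± 156, had passed *Pou5f1*, at 912 ± 131. *Sall4* came next at 562 ± 18. *Trim71* (107 ± 18.1), *Dppa4* (106 ± 11.5) and *Utf1* (89.2 ± 17.6) overlapped, and the lowest were *Dppa2* (59.0 ± 1.54) and *Dppa3* (3.13 ± 2.15).

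Some reads of these genes could also come from near copies. Of all 50-base windows of the annotated transcripts, the read length used, 38.6% were shared with another annotated gene for *Dppa5a*, 31.3% for *Dppa4* and 29.1% for *Dppa2*. The shares were 16.5% for *Dppa3*, 10.1% for *Pou5f1*, 7.64% for *Sall4*, 4.72% for *Lin28a*, 0.98% for *Trim71* and 0% for *Utf1*. How reads that map to several places were counted is not given in the sources used here, so the levels of *Dppa5a*, *Dppa4* and *Dppa2* are the least certain.

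Counts past the study's threshold (FDR < 0.1 and at least 4-fold, limma) are given for completeness, since the same contrasts chose the genes, and nothing is read from them. Lower than 0 h were 0 of 9 genes at 2, 4, 8 and 16 h, beside 0.348%, 0.709%, 1.31% and 2.4% of the 15227 genes tested. *Dppa3* was lower at 24 and 48 h, beside 4.34% and 7.09%. *Dppa3* and *Pou5f1* were lower at 96 h, beside 10.3%. *Utf1* joined them without replicate 4, within replicates 1 and 2 alone and with scaling by total reads. Only *Lin28a* was higher, at 16, 24 and 48 h, beside 4.03%, 4.85% and 8.48% of genes. It was not past the threshold at any of these times within replicates 1 and 2 alone, nor at 16 and 24 h without replicate 3 or without replicate 4. None of the 9 was higher at 2, 4, 8 and 96 h, where 2%, 2.69%, 3.4% and 9.28% of genes were. Between neighbouring time points, *Dppa3* alone was lower, at 96 h against 48 h, beside 2.4% of genes. The other steps had 0 of 9, beside 0.23% (4 h against 2 h), 0.25% (8 h against 4 h), 0.539% (16 h against 8 h), 0.729% (24 h against 16 h) and 1.41% (48 h against 24 h).

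By the samples alone, without a fold limit, 3 of the 9 genes lay wholly below 0 h at 48 h (*Pou5f1*, *Dppa3* and *Dppa4*), as 29.2% of all genes tested did, and 3 wholly above (*Sall4*, *Lin28a* and *Dppa2*), as 29.7% did. After scaling by total reads, *Trim71* was also wholly below at 48 h and *Dppa2* no longer wholly above, with no change at 96 h. At 96 h 7 lay wholly below 0 h, beside 32.1%, and 2 wholly above, beside 33.1%. At 96 h all 9 genes lay wholly below their own 48 h samples, beside 22.1% of all genes. Their median log2 difference from 0 h was 0.68 at 16 h, -0.09 at 48 h and -1.01 at 96 h, beside medians of 0.01, -0.02 and -0.03 over all genes tested.

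**Figure D2:**
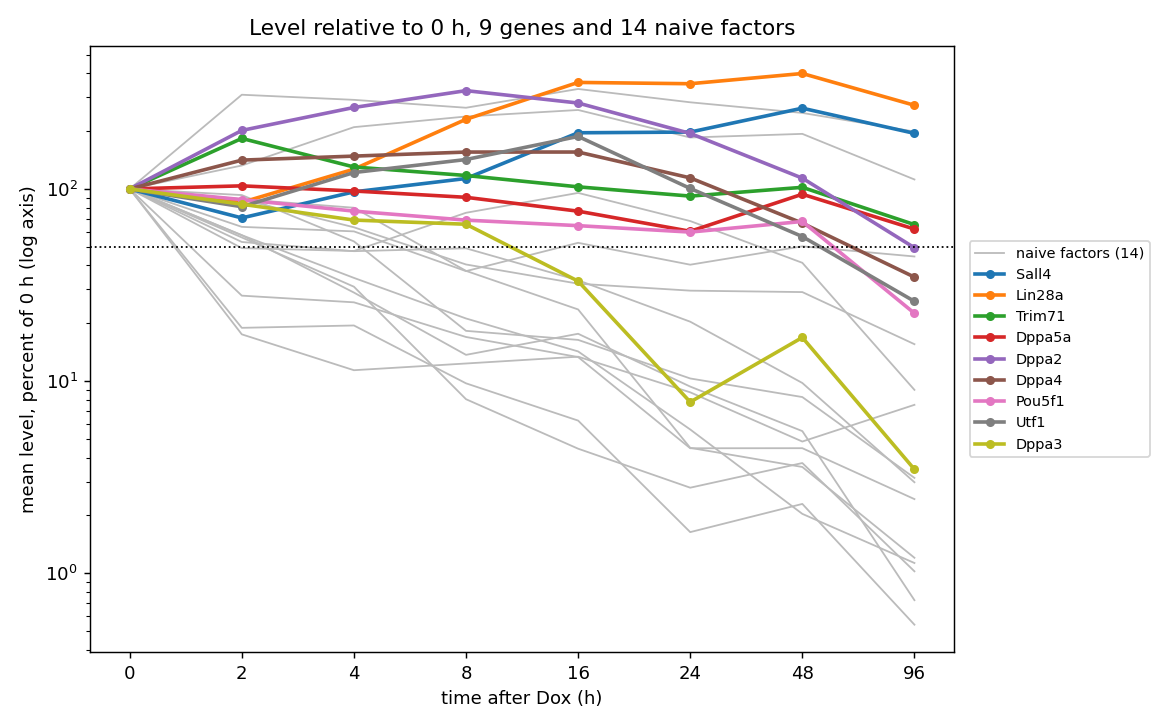
Mean level as percent of 0 h (log axis, n = 4 per point) against time after Dox for the 9 genes in colour and 14 naive pluripotency factors in grey, with 50% dotted. At 48 h the 9 genes lie between 16.9 and 399%, and *Dppa3* alone among them lies below 50%.

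Naive pluripotency factors, mostly transcription factors that hold ES cells in the ground state, served for comparison. The 14 listed include all 8 ES cell markers above, so the falls of those markers are not a second result. Since the 9 genes were chosen for staying on late, nothing is read from a difference between them and these factors. Of 14 listed, 12 crossed 50% of 0 h, at a median of 2.86 h and a latest of 50.2 h (*Klf4*), and *Klf5* and *Tbx3* did not cross it. Each time is that of the last crossing, and some factors had been below the mark before. *Klf4* was down to 37.3% by 8 h and from 16 h on lay between 40.3 and 52.4%. *Tcl1* was down to 49.2% by 2 h and back up to 95.4% by 16 h, before its last crossing (40.2 h). Their median level was 6.87% of 0 h at 48 h and 3.05% at 96 h. At 48 h 9 of the 14 were lower and 0 higher (limma, FDR < 0.1 and 4-fold, the same counts by limma-voom, with 12 lower and 2 higher at an unadjusted p under 0.05), with a median log2 difference of -3.94 against -0.02 over all genes. *Nr5a2*, an orphan nuclear receptor, fell from 814 ± 36.0 to 16.6 ± 6.21 (limma adjusted p = 4.86e-18), and *Prdm14*, a PR-domain repressor, from 444 ± 154 to 10.2 ± 5.82 (limma adjusted p = 6.38e-14). Their levels at 48 h ranged from 2.04 to 249% of 0 h, and 7 of the 9 genes lay within that range, with *Sall4* and *Lin28a* above it.

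**Figure D3:**
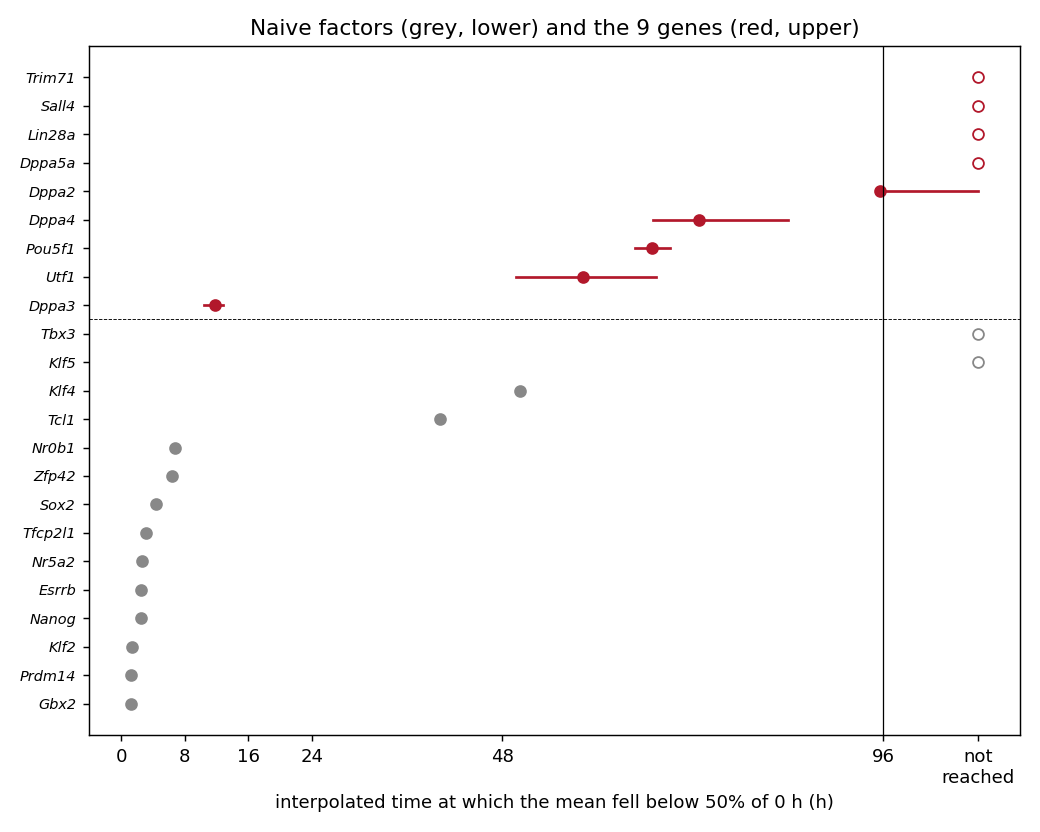
Interpolated time (h) at which the mean last fell below 50% of 0 h, for 14 naive factors in grey and the 9 genes in red, with bars for the range over leaving out each replicate and open circles for genes that did not cross by 96 h. *Dppa3* at 11.8 h is the earliest of the 9 genes and *Dppa2* at 95.6 h the latest that crossed.

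Genes that work with the 9 were taken as lists. With the 14 naive factors above counted in, 74 of 82 listed genes could be tested at 48 h against 0 h. Of these, 22 were lower and 1 was higher past the threshold (limma, FDR < 0.1 and 4-fold), beside 7.09% lower and 8.48% higher of all genes tested. The naive factors made up 9 of the 22. All lists were chosen with earlier results of these data known, so their counts and p-values are a description and not an independent test. Among POU and SALL relatives, 8 were tested, 3 were lower and 1 higher, with a median log2 difference of -1.15. *Pou2f3*, an octamer-binding factor, fell from 366 ± 76.2 to 23.4 ± 4.64 (limma adjusted p = 1.31e-08) and *Sall3*, a zinc-finger relative of *Sall4*, from 171 ± 6.86 to 25.1 ± 2.62 (limma adjusted p = 4.93e-13). *Pou3f2* was at 10.8 ± 8.11 at 0 h and at most 2 reads per sample at 48 h (limma adjusted p = 8.65e-05), a call lost with a pseudocount of 8, with the deposited values, with the mean count filter of 50, without replicate 4 and within replicates 1 and 2 alone. *Sall2* rose from 31.5 ± 4.02 to 139 ± 9.49 (limma adjusted p = 2.57e-13), close to the 4-fold limit and under it after scaling by total reads.

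In the LIN28, let-7 and TRIM71 list, 21 genes were tested, and 1 was lower and 0 higher by limma and by limma-voom (11 and 7 at an unadjusted p under 0.05), with a median log2 difference of -0.26. *Hmga1*, a chromatin architectural gene and let-7 target, fell from 915 ± 181 to 164 ± 69.5 (limma adjusted p = 2.85e-11). A further 10 fell and 8 rose at FDR < 0.1 by less than 4-fold, as 30.3% and 27.6% of all genes tested did. Of those, 4 are named here after their values were seen, as the largest falls and the largest rises among them. No direction of let-7 targets or TRIM71 targets as a group is read from these 4. *Lin28b*, the paralogue of *Lin28a*, fell from 94.1 ± 25.7 to 28.8 ± 7.40 (limma adjusted p = 4.06e-06). *Mycn*, a let-7 target, rose from 577 ± 143 to 1718 ± 64.4 (limma adjusted p = 1.56e-13) and *Hmga2*, another, from 307 ± 26.7 to 833 ± 106 (limma adjusted p = 1.31e-11). At 96 h *Mycn* was at 1481 ± 90.1, whereas *Hmga2* was back at 331 ± 33.5. *Cdkn1a*, a cell cycle inhibitor whose mRNA TRIM71 represses, fell from 1481 ± 242 to 392 ± 123 (limma adjusted p = 1.01e-08) and was back at 1329 ± 499.5 at 96 h.

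Genes with a let-7 match were also looked at across the whole table. The 492 tested genes with CTACCTCA in the 3′ UTR had a median log2 difference from 0 h of 0.16 at 48 h and 0.21 at 96 h. The 11569 without the 7 letters had medians of 0.01 and 0.02. The 902 with the 7 letters only had 0.06 and 0.05. These medians were not tested, and UTR length and level were not matched between the groups. Mature microRNAs are not captured by these libraries, and let-7 itself was not measured here.

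The cleavage-stage genes linked to DPPA2 and DPPA4 were near the limit of detection. Of 9 with a row, 4 could be tested (*Zscan4a*, *Zscan4c*, *Zscan4d* and *Zfp352*) and 0 were called by limma, with 0 also at an unadjusted p under 0.05 and by limma-voom. *Zscan4d*, the highest of them, was at 25.9 ± 29.8 at 0 h and 14.8 ± 7.51 at 48 h, a difference smaller than its spread. Within replicates 1 and 2 alone, *Zscan4c*, *Zscan4d* and *Zfp352* were higher at 48 h.

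In the list of methylation and germline genes linked to DPPA3, 12 were tested, and 4 were lower and 0 higher by limma and by limma-voom (10 and 1 at an unadjusted p under 0.05), with a median log2 difference of -1.34. *Tet1*, a 5-methylcytosine oxidase, fell from 3820 ± 742 to 734 ± 57.8 (limma adjusted p = 9.89e-18). *Dazl*, a germ cell RNA-binding gene, fell from 176 ± 41.7 to 14 ± 6.19 (limma adjusted p = 1.43e-13), and *Ifitm3*, an interferon-induced membrane gene that marks early germ cells, from 1485 ± 112 to 317 ± 47.8 (limma adjusted p = 3.87e-16). *Nanos3*, another germ cell gene, was at 13.7 ± 2.13 at 0 h and at most 1 read at 48 h (limma adjusted p = 2.35e-10), a call lost with a pseudocount of 8 and with the mean count filter of 50.

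Among 15 other ES cell genes tested, 5 were lower and 0 higher by limma and by limma-voom (12 and 3 at an unadjusted p under 0.05), with a median log2 difference of -0.96. *Fgf4*, a growth factor made by the epiblast, fell from 1811 ± 296 to 86.2 ± 33.6 (limma adjusted p = 2.15e-14), *Tdgf1*, a Nodal co-receptor, from 3857 ± 328 to 317 ± 54.7 (limma adjusted p = 1.92e-13) and *Khdc3*, a gene of the oocyte and early embryo, from 288 ± 27.9 to 27.7 ± 10.3 (limma adjusted p = 1.18e-13). *Eras*, a Ras-like GTPase of ES cells, went from 42.6 ± 15.6 to 6.38 ± 2.04 (limma adjusted p = 0.0017), also lost with that pseudocount and that filter. *Trh*, the gene of thyrotropin-releasing hormone, was at 4150 ± 3824 at 0 h, a spread nearly as large as its mean, and at 61.5 ± 3.57 at 48 h (limma adjusted p = 1.00e-05).

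**Figure D4:**
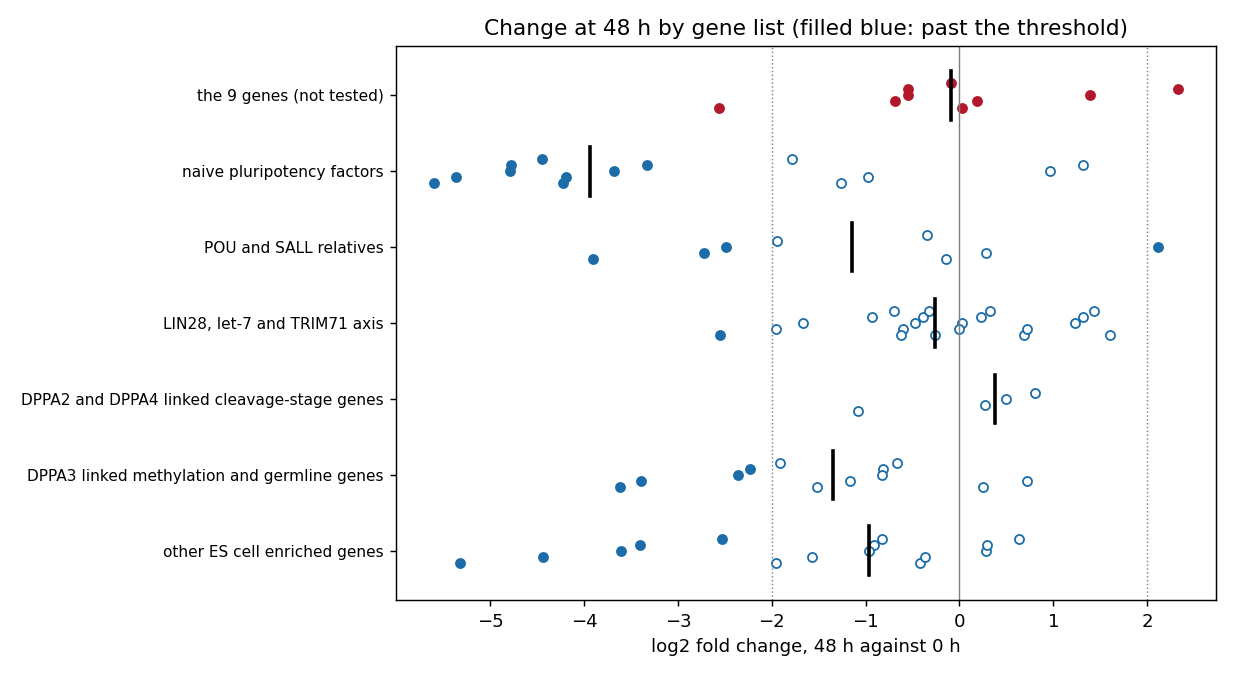
Log2 fold change at 48 h against 0 h (limma, each point a gene, n = 4 against 4) for the 9 genes in red, which were not tested, and for 6 lists of related genes in blue, filled where past FDR < 0.1 and 4-fold. Black bars are medians, from -3.94 for naive factors to 0.38 for the 4 cleavage-stage genes, and -0.09 for the 9 genes.

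The genes whose courses were most like each of the 9 were found by Pearson r over the 8 time point means (log2 scale) among 10277 genes, as a description. For *Lin28a* these were *Rnf152* (r = 0.999), *Wdfy1* (0.992) and *Amot* (0.99). *Wdfy1* reached 436% of 0 h at 48 h and 327% at 96 h, close in size to *Lin28a*, whereas *Amot* rose from 9.45 to 3770 counts. For *Sall4* they were *Nsun3*, *Fbxo21* and *Mxd3* (0.988 to 0.984), and for *Pou5f1* *Rpl36a*, *Acer2* and *Ifitm2* (0.991 to 0.987). For *Dppa4* they were *Spry1*, *Gm13147* and *Ralgapa1* (0.994 to 0.993), for *Dppa2* *Nmt2*, *Gm38393* and *Vbp1* (0.984 to 0.979), and for *Utf1* *Sult5a1*, *Calcoco2* and *Ltbp4* (0.995 to 0.98). *Dppa3* was closest to *Alpk3*, *Gm10499* and *Acp6* (0.989 to 0.985), and *Trim71* to *Ska3*, *Malat1* and *Zfp384* (0.961 to 0.957). *Dppa5a* was closest to *Dtx3*, *Gm6083* and *Nckap1l* (0.983 to 0.968), of which *Gm6083* shares 50-base windows with *Dppa5a* and may hold the same reads. None of the closest genes was a member of the 9.

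Promoters in the RefSeq table (250 bases before to 50 after the start, GRCm38.p6) were matched for *Pou5f1*, *Lin28a*, *Trim71* and *Utf1*. They were searched on both strands for the octamer ATGCAAAT, which OCT4 binds, for the GATA motif, and for the GC box GGGCGG. The GATA motif was taken as AGATAA, its variant form AGATAG, the form TGATAA that starts with another base, or the last form TGATAG. A SOX motif, taken as ACAAAG or as its other form ACAATG, was searched as well. No match to the octamer was found in these windows, and 1.74% of 32851 promoters held it. *Pou5f1* held 1 GATA match in each of its 2 annotated promoters, a motif present in 29.8% of promoters, and the other 3 genes none. The GC box was found 4 times in *Utf1*, with 2 of them overlapping in neighbouring letters, once in *Lin28a*, *Trim71* and the upstream *Pou5f1* promoter, and in 35.7% of promoters. The SOX motif was found once in *Lin28a* and once in the downstream *Pou5f1* promoter, and in 28.6% of promoters. The GATA matches are printed since GATA6 was the factor induced, with the motif in capitals, on the plus strand.

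*Pou5f1* upstream promoter, chr17:35505917-35505944: aagacacaggcAGATAGcgctcgcctca

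*Pou5f1* downstream promoter, chr17:35508588-35508615: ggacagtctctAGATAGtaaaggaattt

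Such matches are not binding sites, and no binding or chromatin data were analysed here.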

How the data were processed

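RNA-seq of 32 samples was analysed from the deposited table of log2 values, made by the authors with the variance stabilizing transformation of DESeq2. The authors trimmed reads with cutadapt 2.7, checked them with FastQC 0.11.8, aligned them to GRCm38.p6 with HISAT2 2.1.0 and counted them with featureCounts (Subread 1.6.4) on GENCODE annotation. The transformation was inverted here from the lowest value, 1.58, which stands for 0 reads. This gave normalized counts and whole reads for 100% of values (tolerance 1e-06).

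A gene was kept when 4 or more samples held a normalized count of 10 or higher. The log2 of this count plus 1 was fitted with limma 3.58.1 (R 4.3.3, trend, all 32 samples, Benjamini-Hochberg adjustment per comparison). The fit was run on simulated counts of 11895 genes, 200 of them changed by a log2 fold of 3, and recovered 200 with 0 false calls. The simulation held no difference between replicate sets and no low genes, so it says nothing about those. Fold changes of low genes are understated by the pseudocount. Other values were computed in Python 3.11.15.

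The members and lists were chosen with earlier results of these data known. Named genes are the 9 genes, markers, in each list the 2 largest rises and falls past the threshold at 48 h and every gene of a count of 5 or fewer, and the 3 most similar genes. Outside this rule, 4 let-7 axis genes under 4-fold were named after their values were seen. Of the listed names, 81 of 82 matched a row. Alternatives covered scaling, pseudocount, filter, limma-voom on the whole reads, the replicate block and left-out replicates. The separation of samples after scaling by total reads was added after the data were seen. p-values measure only the spread between these samples, which may be technical. Read numbers show counting error alone, as PCR copies carry no mark. Coordinates are from GENCODE M21 on GRCm38.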

Additional observations from a re-analysis of the deposited data

Results flagged for a closer look

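Among the 72 groups of 4 values (9 genes at 8 time points), 1 held a sample that stood apart from the other 3 by Dixon's test at the 95% level, where chance gives about 1 in 20. *Trim71* at 0 h was 1680 in replicate 3, against 1472 to 1498 in the other replicates, a gap of 0.877 of the whole range.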

How the results depend on the processing

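Of 360 recomputed counts, 331 stayed within 1.5 times the reported count and 29 moved. With genes kept at a mean normalized count of at least 50, *Dppa3* was not tested, so that 0 of the 9 genes were lower than 0 h in the 24 and 48 h samples, 1 was lower in the 96 h samples, and 0 were lower from 48 to 96 h. The last count was also 0 with a pseudocount of 8, with the deposited values left as they were and with quantile normalization, and 0 to 1 over left-out replicates (0 without replicate 3). Within replicates 1 and 2 alone, 0 of the 9 genes were lower at 48 h and 0 higher at 16, 24 and 48 h, since *Dppa3* and *Lin28a* were no longer past 4-fold. Within replicates 3 and 4 alone, *Lin28a* was also higher at 8 and 96 h (1 gene each) and *Dppa3* lower at 24 h than at 16 h (1 gene). Leaving out each replicate gave 0 to 1 higher (*Lin28a*) for the 16, 24 and 96 h samples, and 0 to 1 lower (*Dppa3*) from 16 to 24 h. The number that crossed 50% of 0 h by 96 h, 5, was 3 within replicates 3 and 4, and 2 crossed 25%. Measured against the highest time point mean, *Utf1* crossed 50% at 27.7 h, *Dppa2* at 33.5 h, *Dppa4* at 42.3 h and *Trim71* at 61.5 h, which puts *Dppa2* before *Dppa4*. Companion genes higher at 48 h (1, *Sall2*) were 0 with a pseudocount of 8, 0 with the deposited values, 0 with scaling by total reads and 3 within replicates 1 and 2. The cause of these changes was not tested.

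Scaling by total reads put the median log2 difference of all genes at -0.157 at 48 h and -0.287 at 96 h, and quantile normalization at -0.109 at 96 h. Under these, the *Trim71* log2 difference at 48 h turned from 0.03 to -0.11 and -0.02, and with total reads *Pou5f1* at 96 h was 18.8% of 0 h. No other of the 9 genes changed direction at 48 or 96 h under any alternative.

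With the replicate block (the replicate number as a term), companion genes were 22 lower and 1 higher at 48 h, and none of the 22 counts recomputed with it changed. Samples of the same number deviated together no more than samples of the other number of the set (mean correlation 0.196 for both), so the numbers were not taken as pairs.

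Depth limits *Dppa3* most, with at most 4 reads per sample at 96 h, and the cleavage-stage genes.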
